A study of Mus musculus with 75 samples.

Results

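To describe chromatin that became accessible between passage 3 (P3) and passage 5 (P5) of replicative senescence (RS) and stayed accessible at passage 7 (P7), regions were chosen by the presence of ATAC-seq peaks. Overlapping peaks of all 13 ATAC-seq samples on chromosomes 1 to 19 and X were merged into 306843 union regions. A region was taken when it had no peak in any P1 or P3 sample and a peak in at least 2 of 3 samples at both P5 and P7. This rule selected 7598 regions, which are 2.48% of all union regions and are called members here. Presence or absence of a peak chose the members, so their presence and strength are given as a description without a test.

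ATAC-seq uses a transposase that inserts sequencing adapters into DNA that is not wrapped in nucleosomes, and a peak marks a stretch with more insertions than the local background. Accessible stretches away from start sites are often enhancers, which bind transcription factors such as AP-1, the dimers of FOS, JUN and ATF proteins that respond to stress, and TEAD, the DNA-binding partners of the Hippo pathway coactivators YAP and TAZ. Cells that divide in culture until they stop enter RS, a growth arrest held by inhibitors of cyclin-dependent kinases such as p21, the product of Cdkn1a.

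All samples were skin fibroblasts of C57BL/6 mice, taken per the study's methods from 2-month-old females, serially passaged and untreated. ATAC-seq covered 4 samples at P1 and 3 each at P3, P5 and P7, and RNA-seq covered 4 libraries at each of these 4 passages. RNA-seq was also made of fibroblasts of the same strain with shRNA against Tead1 (sh3 and sh4) or Atf3 (sh5 and sh6), each beside a control (nt), with 3 libraries per group. The methods name adult and newborn mice as donors of the manipulated cells without saying which served here. No label says that replicates came from separate animals, so p-values measure the spread between these libraries, which may be technical.

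Each ATAC-seq sample held between 142372 peaks (P3 replicate 2) and 231548 peaks (P7 replicate 2), and every late sample had more peaks than every P3 sample. P5 replicate 3 held the fewest of the late samples, 182390 peaks, which lay within the range of the P1 samples. Total counts per RNA-seq library were 13430229 to 15725823 for the passages and 17245955 to 23380496 for the knockdowns. Markers of most other cell types were at their highest at P1. The summed level of 12 macrophage markers was 338 to 522 CPM (counts scaled to library size) at P1 and 35.7 to 56.3 at P7, that of 10 keratinocyte markers 144 to 508 and 14.7 to 36.7, that of 6 endothelial markers 150 to 165 and 7.33 to 10, that of 9 skeletal muscle markers 106 to 164 and 2.97 to 5.32, and that of 5 adipocyte markers 92.9 to 122 and 1.19 to 5.84. That of 6 Schwann cell and melanocyte markers was 65.3 to 75.3 and 58.7 to 135, which overlapped. The 10 fibroblast markers summed to between 22369 and 35835 CPM in every library. Krt14, Krt17, Myod1, Myog, Adipoq, Plin1, Lep and Dct had 0 counts at P7. Most of this decline came before the members opened: at P3 the sums were 48.3 to 67.1 CPM for macrophage, 37.9 to 61.2 for keratinocyte, 38 to 43.3 for endothelial, 15.4 to 26 for skeletal muscle and 7.62 to 10.5 for adipocyte markers, and at P5 they were 23.1 to 33.1, 16.4 to 36.1, 12.1 to 14.4, 6.08 to 9.69 and 2.12 to 5.49. The part of these changes in the results below was not tested. In bulk samples, fewer cells of a type and less RNA per cell cannot be told apart.

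The DNA under the strongest members is shown first, to make visible what opened. Members with a peak in all 6 late samples were ranked by their weakest sample, and the summit of the strongest peak with 100 bases on each side was read from the forward strand of the RefSeq GRCm38 genome, the assembly called mm10. Capitals mark the AP-1 motif TGAGTCA, read on the other strand as TGACTCA. The 4 strongest intronic or intergenic members with this motif were an intron of Ipo8, an importin gene (chr6:148811229-148811429), an intergenic stretch 37.7 kb from the start of Cops8, a COP9 signalosome subunit gene (chr1:90565476-90565676), one 254.2 kb from Arhgef26 (chr3:62084271-62084471) and one 541.5 kb from Fat4, a protocadherin gene (chr3:39428582-39428782).
Ipo8 intron member: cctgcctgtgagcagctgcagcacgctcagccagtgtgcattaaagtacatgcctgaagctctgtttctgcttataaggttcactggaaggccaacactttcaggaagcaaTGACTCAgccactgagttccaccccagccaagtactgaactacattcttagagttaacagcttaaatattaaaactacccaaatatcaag
Cops8 intergenic member: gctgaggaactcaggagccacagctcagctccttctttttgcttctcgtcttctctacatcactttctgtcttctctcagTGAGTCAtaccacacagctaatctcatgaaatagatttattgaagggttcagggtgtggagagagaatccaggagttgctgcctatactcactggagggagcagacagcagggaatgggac
Arhgef26 intergenic member: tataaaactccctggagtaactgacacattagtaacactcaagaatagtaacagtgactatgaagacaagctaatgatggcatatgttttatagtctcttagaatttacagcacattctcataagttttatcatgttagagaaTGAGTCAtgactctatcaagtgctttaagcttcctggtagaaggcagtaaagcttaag
Fat4 intergenic member: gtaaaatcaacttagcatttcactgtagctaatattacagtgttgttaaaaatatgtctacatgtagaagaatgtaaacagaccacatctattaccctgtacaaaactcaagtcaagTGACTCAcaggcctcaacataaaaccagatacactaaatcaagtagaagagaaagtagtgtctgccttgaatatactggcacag

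In these 4 windows the centre of the motif lay 14, -17, 46 and 20 bases from the summit, with a minus for positions before it on the forward strand. The Ipo8 member ranked 1 of 2085, the Cops8 member 8, the Arhgef26 member 12 and the Fat4 member 24.

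Capitals in the next sequences mark the TEAD motif, ACATTCC or GCATTCC. They are the 2 strongest such members without an AP-1 match, an intergenic stretch 198.3 kb from Gm5346 (chr8:43901776-43901976) and an intron of Negr1, a neuronal adhesion gene, 333.5 kb from its start (chr3:156895725-156895925).
Gm5346 intergenic member: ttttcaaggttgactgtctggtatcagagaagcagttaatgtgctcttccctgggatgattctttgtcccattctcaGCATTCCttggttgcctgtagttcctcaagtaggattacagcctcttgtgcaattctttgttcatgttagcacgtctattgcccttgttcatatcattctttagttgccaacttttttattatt
Negr1 intron member: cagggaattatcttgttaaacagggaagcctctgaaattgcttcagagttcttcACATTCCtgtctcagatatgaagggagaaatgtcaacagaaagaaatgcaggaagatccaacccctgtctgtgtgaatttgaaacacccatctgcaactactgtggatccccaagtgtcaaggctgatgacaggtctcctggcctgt

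Here the centre of the motif lay -20 and -43 bases from the summit. These members ranked 3 and 13. None of the 6 printed windows held matches to both motifs.

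The members were weak peaks at P5 and somewhat stronger ones at P7. Of the 7598 members, 80.1%, 91.7% and 67.0% had a peak in P5 replicates 1, 2 and 3, and 81.2% to 91.9% in the 3 P7 samples. The median fold enrichment over background at the summit was 3.26, 3.22 and 3.25 in the 3 P5 samples, against 5.54, 5.20 and 4.82 for all peaks of the same samples. It was 3.43, 4.07 and 4.05 in the 3 P7 samples, against 5.03, 5.49 and 5.38. The median member stood at the 21.6th to the 24.5th percentile of its sample's peaks at P5 and at the 26.8th to the 34.5th at P7. All 3 P7 medians were above all 3 P5 medians, in fold enrichment and in percentile.

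**Figure D1:**
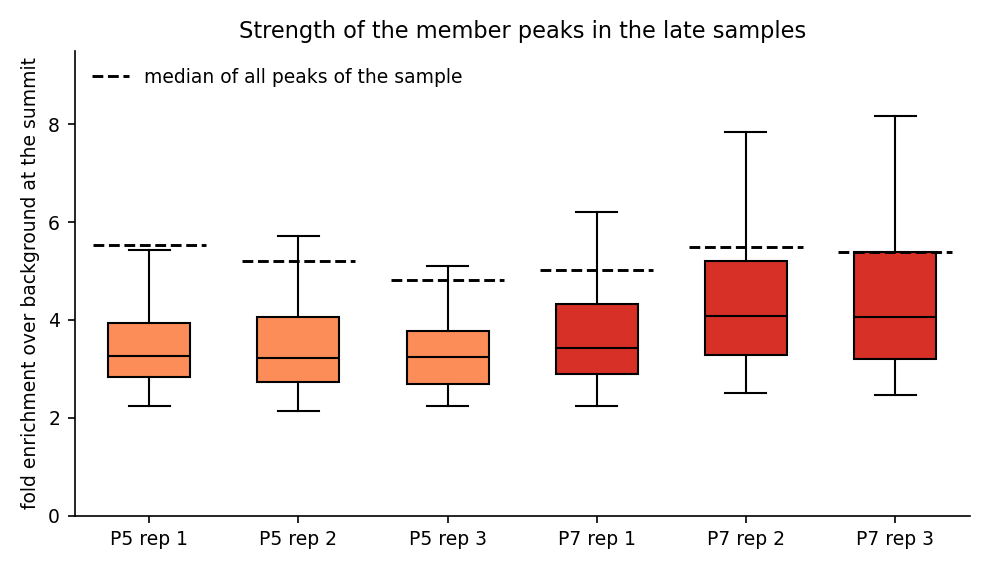
Fold enrichment over background (linear axis) of member peaks in the 3 P5 and 3 P7 samples; boxes span the quartiles with the median, whiskers the 5th to the 95th percentile, and dashed lines the median of all peaks of the sample. Medians of the members were 3.22 to 3.26 at P5 and 3.43 to 4.07 at P7, below the median of all peaks in each sample.

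Many members sat near the edge of the rule. A peak in exactly 2 of 3 samples at both late passages was seen in 2198 members (28.9%), in 2 at P5 and 3 at P7 in 2460 (32.4%), in 3 at P5 and 2 at P7 in 855 (11.3%) and in all 6 late samples in 2085 (27.4%). The mean percentile of the 2198 members with 2 and 2 had a median of 22.4, and that of the 2085 members with 3 and 3 a median of 34.6. Just outside the rule were 7458 regions with a peak in exactly 1 early sample, at a median of 29.8, and 6310 regions with 1 of 3 at P5 and at least 2 at P7, at a median of 22.4. A further 2336 regions had at least 2 at P5 but 1 of 3 at P7, at a median of 18, and 2025 had at least 2 at P5 and none at P7, at a median of 14.1. Regions that opened by P5 and were then lost were thus fewer than members, and weaker.

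The same measure can be read in a sample the rule did not use. Each sample was left out in turn, members were chosen on the other 12, with both remaining samples required where a late one was left out, and the left-out sample was then looked up. Of the regions chosen without it, 66.0%, 82.3% and 54.0% had a peak in P5 replicates 1, 2 and 3, and 76.2%, 88.0% and 81.9% in P7 replicates 1, 2 and 3. The share was 9.3% to 12.7% in the 4 P1 samples and 13.7% to 15.7% in the 3 P3 samples, so late and early samples did not overlap. Of all regions of the other 12 samples, 44.1% to 55.7% had a peak in the early sample left out. The regions chosen had no peak in the remaining early samples and peaks in the remaining late ones, and all regions include those open throughout. Their early and late shares are therefore in part set by the choice and are given as a description. In the late samples the share of all regions was 60.1%, 64.0% and 54.7% in P5 replicates 1, 2 and 3. It was 61.7%, 67.3% and 65.6% in P7 replicates 1, 2 and 3. The members' share was thus level with that of all regions in P5 replicate 3, at 54.0%. In P5 replicate 1 it was a little above, and in the other late samples further above.

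**Figure D2:**
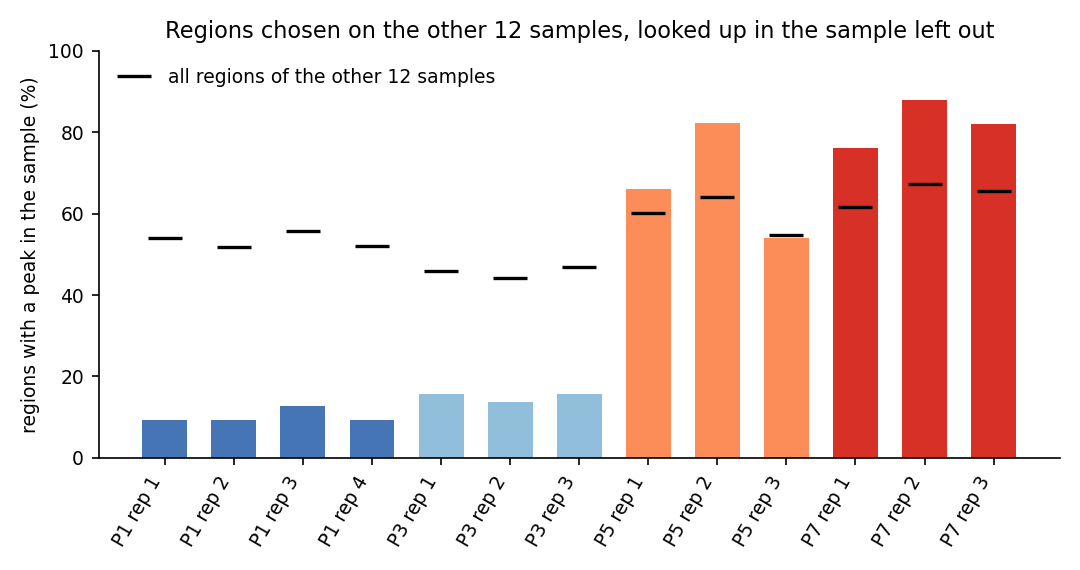
Share (%) of regions chosen on the other 12 samples that had a peak in the sample left out, coloured bars, with the share of all regions of those 12 samples as black dashes. The 7 early samples sit at 9.3% to 15.7%, and the 6 late samples at 54.0% to 88.0%.

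The number of members moved with the samples and the number of peaks taken from each. When every sample gave the same number of peaks, the top 142372 by p-value, the rule selected 1630 regions. Without P5 replicate 2 it selected 3587, without P5 replicate 1 it selected 4458, and leaving out any other sample gave 5166 to 9018. Members present in all 3 samples at both late passages numbered 2085.

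In the 2085 members with a peak in all 6 late samples, strength rose further from P5 to P7. Every P7 percentile was above every P5 percentile in 456 of them (21.9%) and below in 54 (2.6%). In the 94647 regions with a peak in all 13 samples, these shares were 11.4% and 9.12%. The members' median percentile was 25.1, 33.4 and 28.0 in the 3 P5 samples and 35.2, 43.4 and 42.3 in the 3 P7 samples, and the groups did not overlap. Presence in these samples chose the members, so the shift was not tested.

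The 10 strongest members lay away from start sites. The Ipo8 member (chr6:148811147-148811582) had a fold enrichment of 12.62, 11.20 and 7.94 at P5 and of 15.44, 20.53 and 16.17 at P7, so its P5 and P7 samples did not overlap. A member 124.6 kb from Parm1 (chr5:91642290-91642653) had 9.77, 11.55 and 7.64 at P5 and 15.84, 13.79 and 12.38 at P7, again without overlap. The member near Gm5346 (chr8:43901680-43902042) had 7.87, 12.98 and 8.09 at P5 and 15.04, 17.55 and 11.36 at P7, with 1 overlapping pair. A member 448.3 kb from Impg1 (chr9:80913775-80914283) had 10.31, 7.03 and 9.74 at P5 and 13.46, 16.46 and 14.13 at P7, without overlap. These 4 were at least as high on average at P7 as the rest of the 10.

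The other 6 were level or mixed between the late passages. They lay 14.3 kb from Med6 (chr12:81609261-81609825), 568.4 kb from B230118H07Rik (chr2:101052323-101052662), in an intron of Mbnl3, a splicing regulator gene (chrX:51173312-51173749), near Cops8 (chr1:90565230-90565754), 131.5 kb from 1700031L13Rik (chr5:81992505-81993172) and 466.1 kb from Nxph1 (chr6:9416105-9416512). Their mean fold enrichment was 6.99 to 8.56 at P5 and 7.17 to 9.53 at P7. The 1700031L13Rik member had 8.68, 8.46 and 8.54 at P5 and 6.47, 6.58 and 8.45 at P7, the reverse order of the Ipo8 member. Of the 10, 2 held an AP-1 match and 1 a TEAD match. The Impg1 member lay 214 bases from the nearest peak of an early sample and the Parm1 member 853 bases, while the Nxph1 member lay 16.4 kb from one.

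The members were short, intronic or intergenic stretches. Their median width was 371 bases, against 423 for all union regions, 495 for the 3652 regions that opened by P3 and were kept, 286 for the 8582 regions seen only at P7, and 890 for regions in all 13 samples. A start site lay within 1000 bases of 101 members (1.33%), against 6.99% of all union regions and 15.43% of regions in all 13 samples. The share was 1.97% in regions opened by P3 and 1.48% in regions only at P7. Introns held 47.34% of the members, intergenic DNA 48.64% and exons 2.68%. The median distance to a start site was 41.9 kb for members and 32.3 kb for all union regions.

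Their bases were poorer in G and C. The median GC content of this window of 100 bases on each side of the summit was 44.3% in members and 46.8% in all union regions, and CpG dinucleotides numbered 1.74 and 2.88 per window. The nearest peak of an early sample lay at a median of 2.85 kb, within 1 kb for 20.5% of members and beyond 10 kb for 13.1%. Members made up 1.94% (chromosome 7) to 3.09% (chromosome X) of the union regions of a chromosome. Members lay closer to each other than regions at large lay to a member: 759 (10%) stood within 10 kb of another member, in 324 pairs and 37 runs of 3, against 7.9% of all union regions, and the median distance to a member was 76.8 kb against 95.9 kb. Regions opened by P3 lay as close to a member, at a median of 74.5 kb with 10.8% within 10 kb. Regions only at P7 stood at 93.3 kb and 8.1%. These differences were not tested. The runs of 3 included introns of Pparg, a regulator of fat cell differentiation (chr6:115369561-115375189), of Rbfox2, a splicing factor gene (chr15:77117275-77128347), and a stretch of Fn1 (chr1:71601088-71611782), which were picked for mention after the runs were listed.

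The AP-1 motif was less frequent in members than in regions at large, and the TEAD motif more frequent. Each motif was searched on both strands of the same window. An AP-1 match (TGAGTCA) was found in 1271 members (16.73%), against 22.06% of all union regions, 15.64% of regions opened by P3, 22.45% of regions only at P7 and 27.56% of regions in all 13 samples. A TEAD match (ACATTCC or GCATTCC) was found in 1252 members (16.48%), against 12.07%, 22.26%, 11.34% and 13.67% in the same classes. Ordered by the passage of opening, the TEAD share thus went from 22.26% through 16.48% to 11.34%, and the AP-1 share from 15.64% through 16.73% to 22.45%. Both matches stood together in 115 members (1.51%), either one in 2408 (31.69%).

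**Figure D3:**
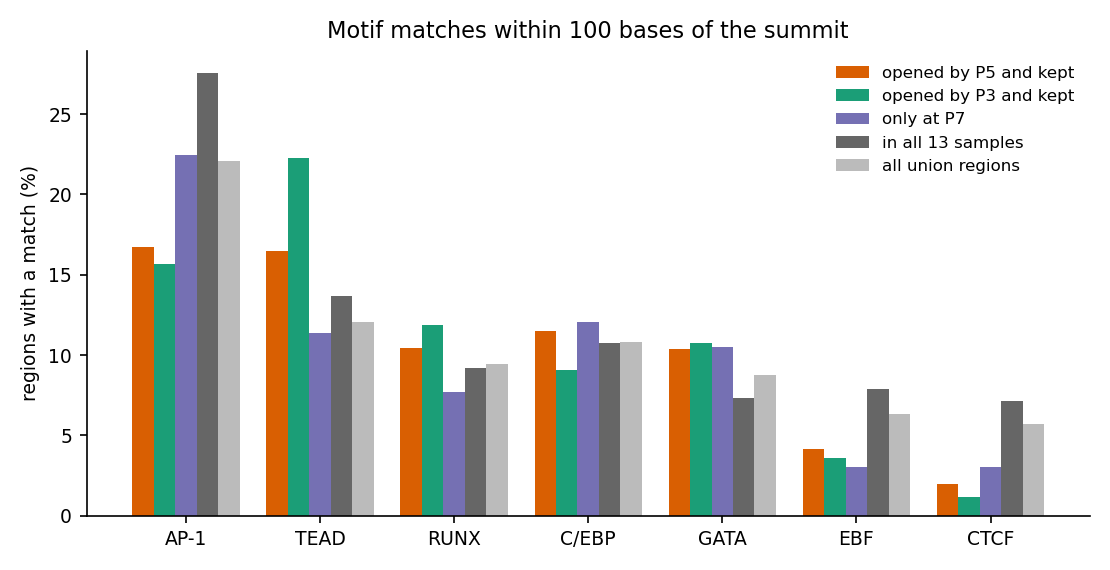
Share (%) of regions with a match to each of 7 motifs within 100 bases of the summit, bars from 0, in 5 classes of regions. Members (orange) stand at 16.73% for AP-1 and 16.48% for TEAD, and all union regions (light grey) at 22.06% and 12.07%.

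The lower AP-1 share was seen at each level of strength. Members were divided into 4 equal sets by mean percentile and compared with all other regions within the same bounds. In the weakest set an AP-1 match was found in 13.3% of members and 14.7% of other regions, and in the strongest set in 20.5% and 26.0%. The TEAD share was 15.7% against 10.3% in the weakest set and 17.4% against 13.1% in the strongest. Among regions with a GC content of 40.3% to 48.3%, AP-1 matches were in 17.2% of members and 24.8% of other regions, and TEAD matches in 17.0% and 13.1%. Without regions at start sites the shares were 16.7% and 23.2% for AP-1 and 16.5% and 12.4% for TEAD. With 50 bases on each side of the summit in place of 100, 13.42% of members held AP-1 and 11.53% TEAD, against 17.46% and 7.98% of all union regions. With the whole region searched, TEAD was in 21.82% of members and 20.84% of all union regions, which differ in width, and AP-1 in 20.35% and 27.88%.

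Matches to both motifs crowded at the summit. In members, AP-1 matches numbered 2.82 per 100 regions in each 20 bases near the summit and 0.26 at the edges, a ratio of 10.98, and all union regions had 3.75 and 0.31. TEAD matches numbered 2.47 near the summit and 0.50 at the edges, a ratio of 4.93, against 1.73 and 0.52 in all union regions. Regions opened by P3 had 3.42 TEAD matches near the summit. The edge levels were alike for all classes, 0.46 to 0.52 for TEAD.

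**Figure D4:**
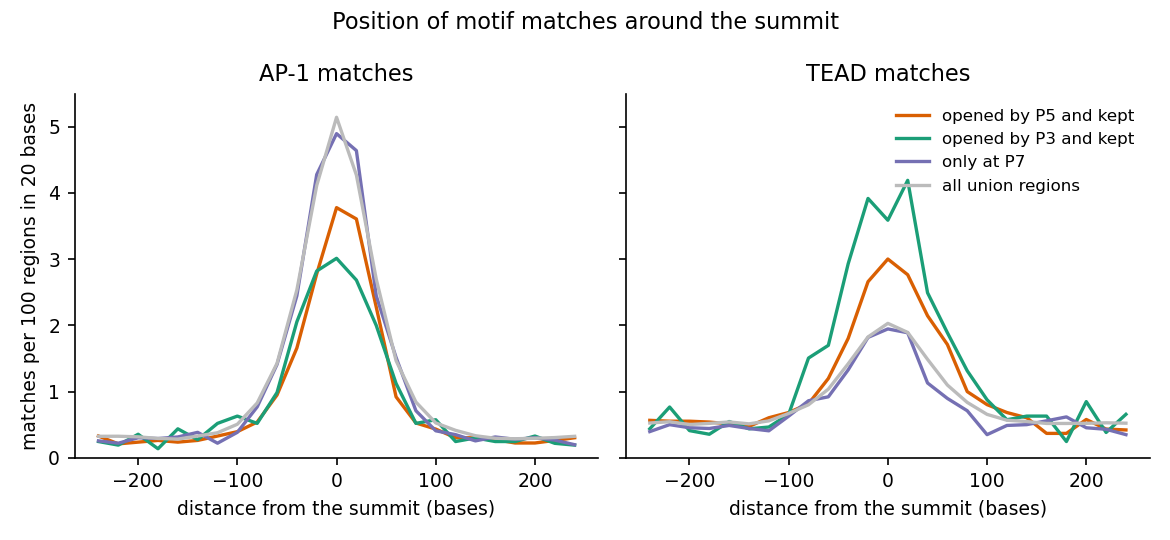
Matches per 100 regions in bins of 20 bases (y axis) by distance from the summit in bases (x axis), for AP-1 (left) and TEAD (right) in 4 classes of regions. Near the summit members average 2.82 AP-1 and 2.47 TEAD matches per bin, and all union regions 3.75 and 1.73.

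Among 18 motifs searched, others also differed in share between members and regions at large. The RUNX motif TGTGGTT was in 10.41% of members and 9.41% of all union regions, and the GATA motif AGATAA in 10.37% and 8.75%. The C/EBP motif TTGCNNAA was in 11.52% and 10.84%, and the SOX motif ACAATGG in 3.96% and 3.23%. Other motifs were rarer in members: EBF (CCCNNGGG) in 4.15% and 6.32%, CTCF in 2.00% and 5.73%, E2F (TTCCCGC or TTGGCGC) in 0.59% and 1.33%, and ETS (CCGGAAG) in 0.66% and 1.54%. The p53 motif was in 9 members (0.12%), against 0.06% of all union regions, and 1 of the 9 lay at Cdkn1a. The ATF/CREB motif TGACGTCA, which an ATF dimer binds, was in 27 members (0.36%), against 0.53%. Most of these shares were like those of regions opened by P3 and of regions only at P7. In this order, these classes had GATA in 10.76% and 10.48%, SOX in 3.75% and 4.08%, and EBF in 3.56% and 3.04%. CTCF was in 1.18% and 3.06%, E2F in 0.55% and 0.45%, ETS in 0.44% and 0.54%, and p53 in 0.05% of both. For RUNX (11.86% and 7.69%) and C/EBP (9.06% and 12.03%), as for CTCF and SOX, the 2 classes lay on both sides of the members. For p53 both lay below the members. A match is a run of letters and does not show that a factor was bound.

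Of the members, 5403 (71.1%) lay within 100 kb of their nearest start site, which linked them to 4195 of the 24799 genes with a start site. Of these 4195 genes, 3308 had 1 member, 660 had 2 and 227 had 3 or more. Expression was compared with edgeR's quasi-likelihood test over 13442 genes, and a gene was called at a Benjamini-Hochberg adjusted p under 0.05 and a fold change over 2. RNA-seq did not choose the members. The number of linked members rose with the number of all regions near a gene, from a median of 6.0 linked regions of any kind for genes without a member to 32.0 for genes with 3 or more.

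At the passage where the members opened, linked genes were called about as often as other genes. From P3 to P5, 20 of 2778 tested linked genes were higher (0.720%) and 80 lower (2.88%), against 0.841% higher and 3.05% lower of all genes tested. From P5 to P7, 42 were higher (1.51%) and 60 lower (2.16%), against 1.18% and 2.28%. Over the whole course, P7 against P1, 266 were higher (9.58%) and 360 lower (13%), against 8.10% and 13.3%. The P7 against P1 comparison also covers genes that changed before the members opened. The median log2 fold change of linked genes was -0.06 from P3 to P5, against 0.01 for all genes tested, -0.01 from P5 to P7 and -0.02 from P1 to P7.

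Shares by number of linked members differed between comparisons. At P7 against P1, 9.12% of genes with 1 member were higher, 10.1% with 2 and 14.3% (23 of 161) with 3 or more, against 8.10% of all genes tested. From P5 to P7 the shares were 1.65%, 1.15% and 0.621% (1 gene), and from P3 to P5 0.871%, 0% and 0.621% (1 gene), so no such order was seen after the members opened. Among genes with at least 20 linked regions of any kind, 97 of 1277 genes without a member (7.60%), 140 of 1230 with at least 1 (11.4%) and 19 of 134 with at least 3 (14.2%) were higher at P7 than at P1. The shares of lower genes in these sets were 15.1%, 12.8% and 8.96%. For P5 against P3 the shares of higher genes were 0.157%, 0.732% and 0.746%, which are 2, 9 and 1 genes. Genes linked to a member with an AP-1 match were higher at P7 than at P1 in 69 of 539 (12.8%) and lower in 52 (9.65%), and those linked to a TEAD match in 51 of 504 (10.1%) and 70 (13.9%).

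A start site lay within 1000 bases of a member for 103 genes, of which 45 passed the filter on low counts. At P5 against P3, 2 were higher (4.44%), Serpinb6c and Aldoc, and 1 lower (2.22%), Mb, against 0.841% and 3.05% of all genes tested. At P7 against P1, 9 were higher (20%) and 6 lower (13.3%), against 8.10% and 13.3% of all genes tested, and those named here were chosen after their values were seen. Higher were Serpinb6c, a serine protease inhibitor gene, Il18rap, a chain of the interleukin 18 receptor, Col28a1 and Col9a3, collagen genes, Tmem202, Cxcr6, the receptor of the chemokine CXCL16, Cdkn1a, Ptk2b, a tyrosine kinase gene, and Dop1b. Among the lower genes were Mb, the oxygen-binding protein myoglobin of muscle, Ptafr, the receptor of platelet-activating factor, Mmp27, Atp2a3 and Dab2. Of the 11 macrophage markers tested, 10 were lower at P7 than at P1, and the part of this in the values of Ptafr was not tested. From P5 to P7, Il18rap and Cxcr6 were higher (4.44%) and Aldoc and Sh2d4a lower (4.44%), against 1.18% and 2.28% of all genes tested. The 58 genes that did not pass the filter were not tested, so these counts describe the tested genes alone.

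Cdkn1a had a member at 1 of its 2 annotated start sites. The member (chr17:29090806-29091083) covered the upstream start, with its summit 24 bases away, and had a fold enrichment of 2.2 and 2.28 in P5 replicates 1 and 2, no peak in P5 replicate 3, and 2.15, 2.33 and 2.31 at P7. These values stood at the 2.8th to the 5.5th percentile of their samples, among the weakest peaks. At the downstream start, 2814 bases from the summit, all 7 P1 and P3 samples already had a peak. Cdkn1a was at 233, 250, 207 and 250 CPM at P1, at 350, 329, 301 and 389 at P3, at 487, 485, 528 and 677 at P5 and at 675, 722, 641 and 682 at P7. Each of P1, P3 and P5 lay wholly above the one before, and P5 and P7 overlapped in 1 library. The log2 fold change was 0.67 ± 0.11 (SE) from P3 to P5 and 1.53 ± 0.11 from P1 to P7, with edgeR adjusted p of 0.000174 and 3.88e-10 (n = 4 per passage). The fold change from P3 to P5 was under 2, so it was not called.

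Serpinb6c had a member at its start site (chr13:33905117-33905529) in 2 samples at each late passage, with a fold enrichment of 3.12 and 2.38 at P5 and 2.68 and 3.93 at P7. Its level was 0.479, 0.883, 0.137 and 0.928 CPM at P1, 1.12, 0.892, 1.16 and 2.63 at P3, 5.04, 3.87, 3.81 and 5.49 at P5 and 7.71, 6.48, 5.84 and 9.13 at P7. All P5 libraries lay above all P3 libraries, and all P7 libraries above all P5 libraries. The log2 fold change was 1.66 ± 0.32 (SE) from P3 to P5 (edgeR adjusted p = 0.00111) and 3.55 ± 0.36 from P1 to P7 (edgeR adjusted p = 6.26e-08). The gene belongs to a family of near copies, which shared reads could affect.

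Aldoc, an aldolase of glycolysis, had a member 600 bases from its start site (chr11:78321938-78322473), within Spag5. Its level was 2.17, 1.92, 2.45 and 0.732 CPM at P3, 3.30, 4.56, 6.14 and 1.52 at P5 and 2.06, 1.31, 2.31 and 0.594 at P7, so the passages overlapped. It was higher by 1.08 on the log2 scale from P3 to P5 (edgeR adjusted p = 0.0421) and fell by 1.31 from P5 to P7 (edgeR adjusted p = 0.0296). The first call was lost without P1 replicate 1 or 2, P3 replicate 1, 2 or 4, or P5 replicate 2 or 3, at adjusted p of 0.0503 to 0.178. The second was lost without P5 replicate 2 or 3 or P7 replicate 2 or 4, at adjusted p of 0.067 to 0.11.

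Mb went the other way from its member (chr15:77021840-77022404), which had a fold enrichment of 4.20 and 4.22 at P5 and 3.74, 4.64 and 3.38 at P7. Its level was 4.18, 3.94, 2.87 and 5.63 CPM at P1, 1.45, 1.03, 0.774 and 0.805 at P3, 0.0646, 0.207, 0 and 0.397 at P5, and 0 in 3 of 4 libraries at P7. Mb fell by 2.56 on the log2 scale from P3 to P5 (edgeR adjusted p = 0.00276), and skeletal muscle markers fell across the same passages. Of 8 tested on that list, 5 were lower at P5 than at P3 and none higher, against 3.05% and 0.841% of all genes tested. The span of Mb overlaps that of Apol6.

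Col28a1, Il18rap and Cxcr6 rose at different passages. Col28a1 had members at and 390 bases from its start site, of which the stronger (chr6:8191885-8192227) had 6.51 and 7.50 at P5 and 7.26, 8.31 and 9.91 at P7. Its level was 5.62, 7.48, 6.36 and 7.24 CPM at P1, 26.2, 27.5, 29.7 and 32.4 at P3, 28.9, 46.0, 32.5 and 38.9 at P5 and 41.1, 25.2, 37.6 and 59.8 at P7. The rise was there by P3, before these members were seen, and from P3 to P5 the difference was 0.34 ± 0.19 on the log2 scale (edgeR adjusted p = 0.182). Il18rap had a member 709 bases from its start (chr1:40516071-40516778), and its level was 1.23, 1.29, 2.12 and 0.804 CPM at P1, 2.56, 3.09, 2.84 and 3.07 at P3, 4.59, 6.64, 4.91 and 2.38 at P5 and 9.31, 11.2, 12.6 and 7.79 at P7. All P7 libraries were above all P5 libraries, with a log2 fold change of 1.14 ± 0.25 (edgeR adjusted p = 0.00343). Without P5 replicate 4 the log2 fold change was 0.93, under the limit of 2-fold, so the call was lost.

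Cxcr6 rose at P7 alone. The member at its start site (chr9:123806386-123806703) held an AP-1 match and had a fold enrichment of 3.18 and 3.34 at P5 and 6.12 and 5.10 at P7. The gene was at 0.685 to 1.05 CPM at P1, 0.732 to 0.986 at P3 and 0.323 to 0.553 at P5, and at 2.60, 3.63, 2.31 and 3.49 at P7. It was higher by 2.68 ± 0.28 on the log2 scale at P7 than at P5 (edgeR adjusted p = 2.67e-06), while the difference from P3 to P5 was -0.83 ± 0.32 (edgeR adjusted p = 0.056). It lies within Fyco1, and the counting did not use strand.

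**Figure D5:**
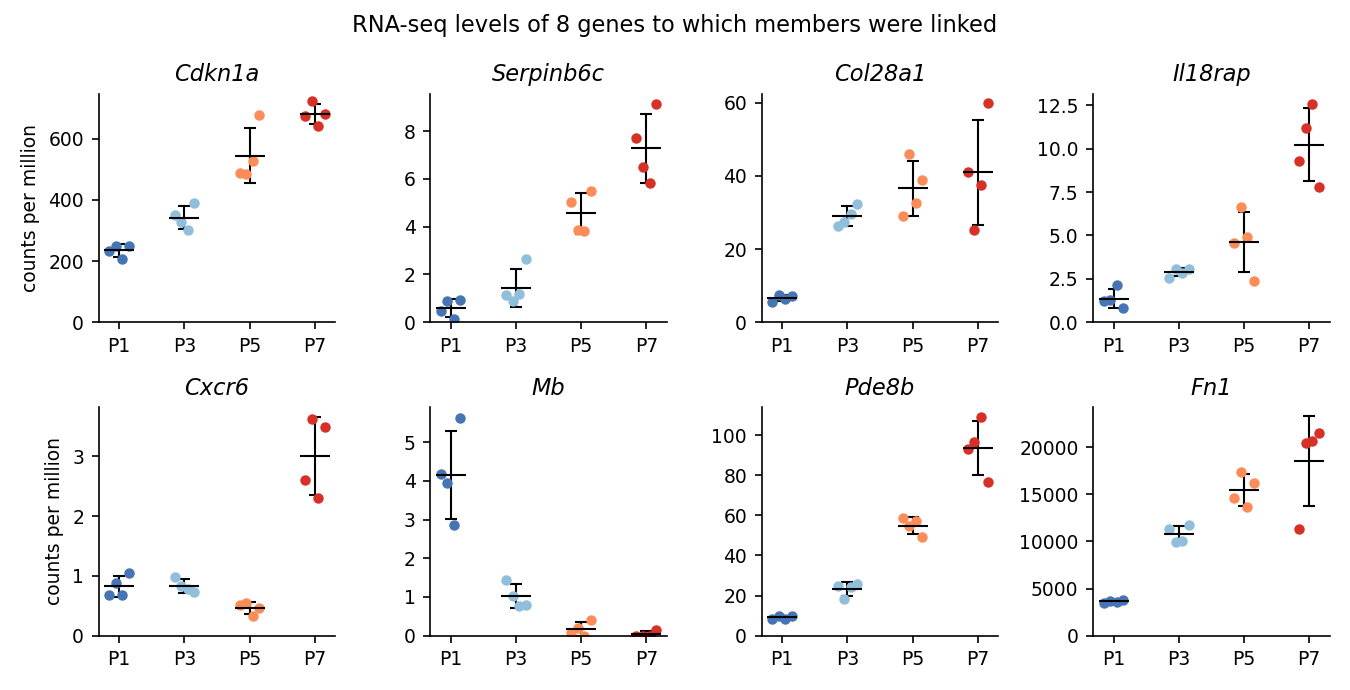
RNA-seq level in CPM (linear axes) of 8 genes to which members were linked, at P1, P3, P5 and P7; points are the 4 libraries of a passage, and bars the mean with the SD. Cdkn1a, Serpinb6c, Il18rap and Pde8b are highest at P7, Cxcr6 rises at P7 alone, Col28a1 and Fn1 have already risen at P3, and Mb declines from P1.

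Genes with the most members were large ones with many accessible regions. Sh3kbp1, an adaptor of receptor endocytosis on chromosome X, had 8 members among 72 linked regions, Palld, an actin-binding protein of stress fibres, 7 among 85, Pde10a 7 among 85 and Pde8b, like it a cyclic nucleotide phosphodiesterase gene, 7 among 42. Celf2, Nxn, Tnik, Trp63, Sptbn1 and Supt20 had 5 each. Of these 10 genes, Pde8b was called at P5 against P3, where 0.841% of all genes tested were higher and 3.05% lower. At P7 against P1 these shares of all genes tested were 8.10% and 13.3%. At P7 against P1, Pde8b, Pde10a, Palld and Nxn were higher and Trp63 lower, and Sh3kbp1 (0.90), Celf2 (-0.92), Sptbn1 (0.81), Tnik (0.32) and Supt20 (-0.30) were not called at these log2 fold changes.

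Pde8b was the sole gene with at least 3 members that was called higher at P5 than at P3. Its 7 members lay 8.6 to 77.9 kb from a start site, 6 of them in its introns, 2 with an AP-1 match and 1 with a TEAD match, and 1 had a peak in all 6 late samples. Its level was 8.36, 9.99, 8.48 and 9.65 CPM at P1, 25, 18.2, 24.1 and 25.8 at P3, 58.7, 54.6, 57.0 and 49.1 at P5 and 92.9, 96.5, 109 and 76.5 at P7. No passage overlapped the next. The log2 fold change was 1.24 ± 0.12 from P3 to P5 (edgeR adjusted p = 1.24e-06) and 3.36 ± 0.13 from P1 to P7 (edgeR adjusted p = 4.06e-13). Pde10a was at 21.1 to 23.3 CPM at P3, 28.0 to 31.3 at P5 and 37.3 to 56.6 at P7, and rose by 1.5 on the log2 scale from P1 to P7 (edgeR adjusted p = 1.84e-09). Palld was at 230 to 288 CPM at P3, 244 to 309 at P5 and 311 to 408 at P7, so P3 and P5 overlapped.

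Called lower at P5 than at P3 with 3 members each were Brip1 and Rad18, genes of DNA repair, and Slc7a11, the cystine transporter. Brip1 was at 12.9 to 14.9 CPM at P3, 6.85, 7.05, 6.01 and 3.24 at P5 and 1.62 to 2.84 at P7, and fell by 1.27 on the log2 scale from P3 to P5 (edgeR adjusted p = 7.08e-05). Its 3 members lay in its introns, 41.7 to 80.4 kb from the start. Slc7a11 fell by 1.07 and Rad18 by 1.01, close to the limit of 2-fold, and both calls were lost without single libraries: Slc7a11 without P3 replicate 4, and Rad18 without P3 replicate 2, 3 or 4 or P5 replicate 3 or 4, at log2 fold changes of -0.99 to -0.93.

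Genes of factors that bind the motifs were not called at P5 against P3. Of all genes tested, 0.841% were called higher and 3.05% lower there, and these lists are short. Of 12 AP-1 subunit genes, Fosl2, Batf and Batf3 had 1 linked member each, and none of the 11 that were tested was called at P5 against P3 or P7 against P5. At P7 against P1, 1 of the 11, Mafk, was higher by 1.11 (edgeR adjusted p = 6.27e-07) and 1, Batf, lower. Of all genes tested, 8.10% were higher and 13.3% lower. Fos was higher by 0.99 at P7 than at P1 (edgeR adjusted p = 2.12e-05), under the limit of 2-fold, so it was not called. The median log2 fold change of the AP-1 list was 0.46, against -0.01 for all genes tested. Fos (0.13), Fosb (-0.14), Fosl1 (-0.39), Fosl2 (-0.09), Jun (-0.22), Junb (0.27), Jund (0.56), Atf3 (0.56) and Maff (0.40) were not called at these log2 fold changes from P3 to P5. Tead1, Tead4, Yap1, Wwtr1, which encodes TAZ, and Ankrd1, a target of YAP, had 1 linked member each. Tead1 was at 417, 447, 481 and 545 CPM at P3, 430, 456, 339 and 362 at P5 and 279, 406, 409 and 417 at P7, which overlapped. Tead2 (0.19) and Tead3 (0.13), like Tead1 (-0.25) and Tead4 (-0.48), were not called from P3 to P5. Ankrd1 was higher by 1.22 at P7 than at P5 (edgeR adjusted p = 1.95e-05), Tead4 lower by -1.79 at P7 than at P1. All 4 genes of the RUNX list, Runx1, Runx2, Runx3 and Cbfb, which encodes their partner subunit, had a linked member. They had 5 members among 179 linked regions, and the 2 of Runx2 both held an AP-1 match. None of these genes was called at P5 against P3, and Runx3 was lower by -1.21 at P7 than at P1. Runx2 was at 50 to 60.8 CPM at P3, 40.3 to 45.2 at P5 and 31.6 to 49.4 at P7, and its span overlaps Supt3.

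Senescence genes went in both directions. Of all genes tested, 8.10% were higher and 13.3% lower at P7 than at P1, and 1.18% and 2.28% at P7 than at P5. At P5 against P3 these shares were 0.841% and 3.05%. Of all genes with a start site, 4195 of 24799 had a linked member. Of 7 CDK inhibitor genes, 3 were higher and 2 lower at P7 than at P1, with a median log2 fold change of -0.24. Of the 7, Cdkn1a and Cdkn2b, which encodes p15, had a linked member, and 1 of the other genes of this list was called higher at P5 than at P3. Cdkn2b was at 24.6 ± 3.88 CPM (SD, n = 4) at P3, 42.7 ± 11.5 at P5 and 54.5 ± 6.21 at P7, and its member lay 74.8 kb from its start. It was higher by 1.89 on the log2 scale at P7 than at P1 (edgeR adjusted p = 1.71e-08). Of 16 p53 target genes, Cdkn1a, Mdm2, Ccng1, Gadd45a and Sesn1 had 1 linked member each. Of that list, 6, among them Cdkn1a and Ccng1, were higher and none lower at P7 than at P1, with a median of 0.78, against -0.01 for all genes tested, and none was called from P3 to P5. Of 35 secretory phenotype genes, 7 had a linked member. None of the 27 that were tested was called at P5 against P3, 5 were higher at P7 than at P5, and 7 higher and 5 lower at P7 than at P1. Cxcl12, the chemokine that binds CXCR4, had 2 linked members and was lower by -2.59 at P7 than at P1 (edgeR adjusted p = 5.15e-09).

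Of 20 matrix and contractile genes, 7 had a linked member. Members were 12 of their 637 linked regions, a smaller share than the 2.48% among all union regions. At P7 against P1, 11 of the 20 were higher and 1 lower, with 8.10% and 13.3% of all genes tested higher and lower. None was called at P5 against P3. Col5a1, a fibrillar collagen gene, had 3 members, and Col5a2, Fn1, which encodes fibronectin, and Postn 2 each. Fn1 was at 3486, 3693, 3547 and 3796 CPM at P1, 11264, 9924, 10017 and 11725 at P3, 14568, 17401, 13677 and 16207 at P5 and 11358, 20413, 20624 and 21541 at P7. P5 lay wholly above P3, while P7 replicate 1 lay below all P5 libraries. Its members, in introns 41.5 and 44.5 kb from the start, were weak, with a fold enrichment of 1.84 to 2.12 at P5 and 1.75 to 2.25 at P7. The log2 fold change was 0.53 ± 0.15 from P3 to P5 (edgeR adjusted p = 0.0116) and 2.35 from P1 to P7 (edgeR adjusted p = 1.2e-10). Col5a1 was at 1221, 1295, 1272 and 1225 CPM at P1, 2790, 2380, 2450 and 2756 at P3, 2546, 2725, 2958 and 3582 at P5 and 2935, 3849, 3478 and 4192 at P7. All P3 libraries lay above all P1 libraries, before its members were seen, and P3 and P5 overlapped. Of the 10 fibroblast markers, Thy1 had a linked member, 2.0 kb from its start.

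Members were also linked to markers of other cell types, most of which declined. Trp63, a keratinocyte marker, had 5 members among 56 linked regions and was at 1.10, 1.36, 4.44 and 2.17 CPM at P1, 0.723, 0.137, 0.645 and 0.146 at P3, 0.646, 0.484, 0.388 and 0.662 at P5 and 0.0763, 0.386, 0 and 0.148 at P7. It was lower by -3.82 on the log2 scale at P7 than at P1 (edgeR adjusted p = 4.06e-05). Of 10 keratinocyte markers, 4 had a linked member, of 6 endothelial markers 3, of 12 macrophage markers 2, of 5 adipocyte markers 2, of 6 Schwann cell and melanocyte markers 3 and of 9 skeletal muscle markers none. Over all genes with a start site, 4195 of 24799 had one, and the difference was not tested. At P5 against P3, 5 of 11 tested macrophage, 5 of 6 endothelial, 5 of 8 muscle and 1 of 2 adipocyte markers were lower and none higher. None of the 9 tested keratinocyte markers or the 5 tested Schwann cell and melanocyte markers was called in that comparison. Of all genes tested, 3.05% were lower and 0.841% higher. Pecam1, Cdh5 and Emcn, endothelial genes with a linked member, fell by 2.58, 1.89 and 2.12 on the log2 scale.

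To see whether genes near the members responded to a factor whose motif they hold, the knockdowns were compared with their controls. The labels give no passage for these cells. The study's methods name early passages for proliferating cells and a passage between P5 and P7 for senescence interventions. They do not say which served for each library, though the study calls the Atf3 knockdown cells pre-senescent. The series holds no ATAC-seq of the knockdown cells. Whether the members were open there is therefore not known. Tead1 was at 572, 508 and 545 CPM in the control and at 268, 284 and 285 with sh3 and 315, 313 and 320 with sh4, so both shRNAs lowered it, by 0.96 and 0.78 on the log2 scale (edgeR adjusted p = 4.63e-17 and 8.58e-15), less than 2-fold. With sh3, 50 of 2694 tested linked genes were higher (1.86%) and 31 lower (1.15%), against 1.99% and 0.722% of the 13012 genes tested. With sh4, 20 were higher (0.742%) and 28 lower (1.04%), against 1.01% and 0.523%. Among genes with at least 20 linked regions of any kind, 18 of 1192 with a member (1.51%) and 6 of 1232 without (0.487%) were lower with sh3, and 16 (1.34%) and 5 (0.406%) with sh4. Higher in these sets were 23 (1.93%) and 30 (2.44%) with sh3, and 12 (1.01%) and 22 (1.79%) with sh4. Genes linked to a member with a TEAD match were lower in 8 of 494 (1.62%) with sh3 and in 6 (1.21%) with sh4, those linked to a member with an AP-1 match in 10 of 534 (1.87%) and 3 (0.562%), and those linked to a region opened by P3 in 18 of 1716 (1.05%) and 16 (0.932%). The share lower was larger for the AP-1 match than for the TEAD match with sh3 and smaller with sh4. These shares rest on few genes, and the difference was not tested. Both shRNAs share the control libraries, and their target sequences in the study's supplement overlap almost fully, so they are not independent. With links of at most 10 kb the lower shares were 0.476% and 0.595%.

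Atf3 was low in all of these libraries, at 3.31, 2.85 and 2.77 CPM in the control, 1.46, 2.10 and 0.451 with sh5 and 1.51, 1.56 and 2.09 with sh6. It was lower by -1.14 with sh5 (edgeR adjusted p = 0.0447) and by -0.79 with sh6 (edgeR adjusted p = 0.114), which did not pass the test. With sh5, 44 of 2752 tested linked genes were higher (1.6%) and 96 lower (3.49%), against 1.38% and 3.82% of the 13345 genes tested. With sh6, 151 were higher (5.49%) and 354 lower (12.9%), against 4.83% and 10.9%. Genes linked to a member with an AP-1 match were lower in 12 of 543 (2.21%) with sh5 and in 69 (12.7%) with sh6. They were higher in 13 (2.39%) and 31 (5.71%). Of 44 tested genes with a member at the start site, 3 were lower with sh5 (6.82%) and 10 with sh6 (22.7%), and 1 and 4 higher. The sets therefore lay on both sides of the shares of all genes, and these differences were not tested. Of the named genes at start sites, calls went in both directions. With sh6, Tmem202 (1.51) and Mmp27 (1.38) were higher and Cxcr6 (-1.49) and Dab2 (-1.30) lower on the log2 scale, and with sh5 Il18rap was higher by 1.48 (edgeR adjusted p = 0.00186). Col28a1 was lower by -2.56 (edgeR adjusted p = 2.98e-05) and Serpinb6c by -4.86 (edgeR adjusted p = 0.000254) with sh6, and neither was called with sh5, at 0.25 and -0.69. Serpinb6c was low there, at 1.27, 1.65 and 1.06 CPM in the control and at 0.0581, 0 and 0.0581 with sh6.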

How the data were processed

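Per the labels and the study's methods, the authors aligned ATAC-seq reads with Bowtie2 (2.3.5.1 in the submitters' processing notes) to mm10, removed duplicates, centred the signal on transposase cuts, kept unique alignments and called peaks in each sample with MACS2; the deposited lists give a fold enrichment (a ratio to the local background) and −log10 p-values and q-values, with the smallest −log10 p at 2. The methods give a general target for reads per ATAC-seq library, and the depth of each sample is not given in the sources used here. The deposited RNA-seq values are raw counts per gene symbol, made by the authors with Trimmomatic 0.39, HISAT2 2.2.1 and HTSeq 0.12.4 without strand. Between 9.8% and 16.8% of the reads in a knockdown table stood in rows that name no gene, which were left out.

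Peaks were merged, classed and annotated in Python 3.11.15 (pysam 0.24.0) with RefSeq curated transcripts on GRCm38, whose chromosome names and lengths match mm10. Of 24984 gene symbols, 24884 were matched. Motifs were searched within 100 bases of the summit. Counts were fitted with edgeR 4.0.16 in R 4.3.3 (filterByExpr, TMM, quasi-likelihood), all libraries of an experiment together, and CPM are scaled by TMM. DESeq2 1.42.0, other filters, links, thresholds and left-out samples were alternatives. Peak merging and the count test were tested on simulated data. Regions and genes were named by rank, by calls and by fixed lists: the 10 members with the strongest weakest sample, genes with a called start site, the 10 tested genes with most members, called genes with at least 3 members (average of at least 1 log2 CPM), at most 4 list genes with a linked member, and AP-1 and TEAD subunits. The members and the lists were chosen with earlier results of these data known. RRBS and E2f4 samples were not used here. The result of 1 gene with a member at its start site is not reported here.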

Additional observations from a re-analysis of the deposited data

Results flagged for a closer look

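Levels of 18 genes described above were examined for a library far from the other 3 of its passage, by Dixon's ratio of the gap to the range. Of 72 groups, 5 passed, and chance passes about 1 in 20. P7 replicate 1 stood low for Fn1, at 11358 CPM against 20413 to 21541 in the others, and for Tead1, at 279 CPM against 406 to 417. P3 replicate 4 stood high for Serpinb6c, at 2.63 CPM against 0.892 to 1.16. P1 replicate 3 stood high for Sh3kbp1, at 111 CPM against 100 to 101. P7 replicate 4 had 0.148 CPM of Mb, 2 counts, against 0 in the others.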

How the results depend on the processing

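Of 482 alternative values of shares and counts, 439 stayed within the bounds set for a change, and of 1357 alternative values for 63 results of single genes, 1318 kept direction and call, 39 lost the call and 0 reversed. The number of members depended most on the samples: 3587 to 9018 when 1 was left out (fewest without P5 replicate 2, and 4458 without P5 replicate 1), 1630 with equal numbers of peaks and 2085 with all 3 samples required, against 7598. The share at start sites was 0.79% within 500 bases and 2.99% within 2 kb (all union regions 5.79% and 9.31%). With at least 10 counts in every library, a filter that leaves fewer genes, linked genes at P5 against P3 were 7 higher and 51 lower, at P7 against P5 24 higher, at P7 against P1 223 lower, with sh3 28 higher, with sh4 8 higher and 16 lower, and with sh5 59 lower. Genes with a member at the start site were then 0 higher and 0 lower at P5 against P3, 1 and 1 at P7 against P5, and 5 and 2 at P7 against P1. Fitting only the groups compared gave 1 higher at P5 against P3 and 1 lower at P7 against P5. With 1 library left out these start-site counts were 1 to 2 higher and 1 to 4 lower at P5 against P3, and 1 to 3 higher and 1 to 2 lower at P7 against P5. With links of at most 10 kb, 0.476% of linked genes were lower with sh3, 0.476% higher and 0.595% lower with sh4, and 0.943% higher with sh5. The shares of all genes tested were 0.722% lower with sh3, 1.01% higher and 0.523% lower with sh4, and 1.38% higher with sh5. For the other filters and fits the share of all genes called is not given here, so those counts cannot be set beside it. The cause of these changes, beyond the number of genes or samples left, was not tested.

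Replicate numbers did not pair the libraries: same-numbered libraries of the passages deviated together with correlations of -0.26 to 0.28. With the replicate block, linked genes at P5 against P3 were 21 higher and 83 lower, and no count above moved by over 1.5 times. Calls lost in at least 1 alternative were those of Aldoc in both comparisons, Slc7a11, Rad18, Pecam1 (P7 against P5), Atp2a3, Col9a3 and Il18rap (P7 against P5). ATAC-seq depth of each sample is not given in the sources used here, so a peak missed in an early sample cannot be told apart from closed chromatin.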
